A study of Rattus norvegicus with 8 samples.

Results

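Axon regeneration associated genes are the genes that neurons switch on or off when an axon is cut, together with genes that help or hinder the regrowth of that axon. Here 9 of them were described in rat spinal cord: Atf3, Gadd45a, Gap43, Sprr1a, Sox11, Klf4, Klf6, Basp1 and Rtn4. They were taken by name from the platform annotation, using the probe set (the group of array probes that reads 1 transcript region) that carried the gene's symbol and no other, and each of the 9 had exactly 1 such probe set. They are 9 of 18166 genes tested.

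Messenger RNA was measured on 8 Affymetrix Rat Gene 2.0 ST arrays of fresh thoracic cord. In the injured group (SCI, 4 arrays) the rats had received a thoracic spinal cord injury, and in the sham group (4 arrays) a laminectomy alone, which opens the bone over the cord. All were male Long Evans rats of about 175 days that weighed 400 g, recovered for 4 weeks after surgery on chow with 17% fat, and then ate a high-fat diet with 40% fat until the end of a study given as 8 weeks, so both groups carry the diet. One label places the tissue at segments T10 to T11 and another at T11 to T12, and nothing says how severe the lesion was or at which segment it was made. The design text mentions 10 rats, and the labels do not tie an array to an animal, so the p-values measure the spread between these arrays. The cell bodies of descending tract neurons and of dorsal root ganglion neurons lie outside such a piece of cord, and the readings are those of whole tissue. SCI 3, sham 1 and sham 2 stood apart from the other arrays on the second principal component of all values, at -17.18 to -12.62 where the others lay at 4.53 to 14.79, and no label explains it. The first component, with 45.6% of the variance, separated SCI (-30.25 to -14.20) from sham (19.62 to 25.27).

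In textbook models, a cut peripheral axon sends signals back to its cell body, which then makes stress-induced transcription factors such as Atf3, Sox11 and Klf6, followed by growth cone proteins such as Gap43 and Basp1 and the small proline-rich protein Sprr1a. Central axons are known to mount this programme weakly. Klf4 is known in rodents to restrain axon growth, and Rtn4, also called Nogo, makes a myelin protein that stops growth cones.

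In injured cord, 4 of the 9 genes were higher than in sham (Gadd45a, Atf3, Klf6 and Klf4), 1 was lower (Rtn4), and 4 did not pass the test (Sox11, Sprr1a, Gap43 and Basp1). The 4 higher genes are regulators: 3 transcription factors and a stress sensor. Sox11, a further transcription factor among the 9, differed by 0.05 on the log2 scale and did not pass. The growth cone genes Gap43 and Basp1 differed by -0.03 and 0.04 on the log2 scale. The test was a limma model over all 18166 genes with p-values adjusted by Benjamini-Hochberg, and calls were made at an adjusted p under 0.05. By that rule 7.10% of all genes were higher in SCI, 7.06% lower and 14.2% changed in either direction. In a separate limma fit and adjustment of only the 9083 genes brighter than the median gene, which include 7 of the 9, 35.0% were called. The median SCI minus sham difference was 0.05 over the 9 genes and -0.01 over all genes tested. Groups did not overlap for 4 of the 9 genes, 3 with SCI above and 1 with SCI below sham, where 9.36% and 10.9% of all genes were so placed (20.3% in all). At an unadjusted p under 0.05 there were 5 of the 9 and 26.7% of all genes. Called with a change of at least 2-fold were 2 of the 9 and 1.60% of all genes. Without SCI 3, sham 1 and sham 2, Gadd45a (limma adjusted p = 0.00965), Atf3 (0.0328), Rtn4 (0.0350) and Klf6 (0.0463) stayed called and Klf4 did not (0.0932).

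**Figure D1:**
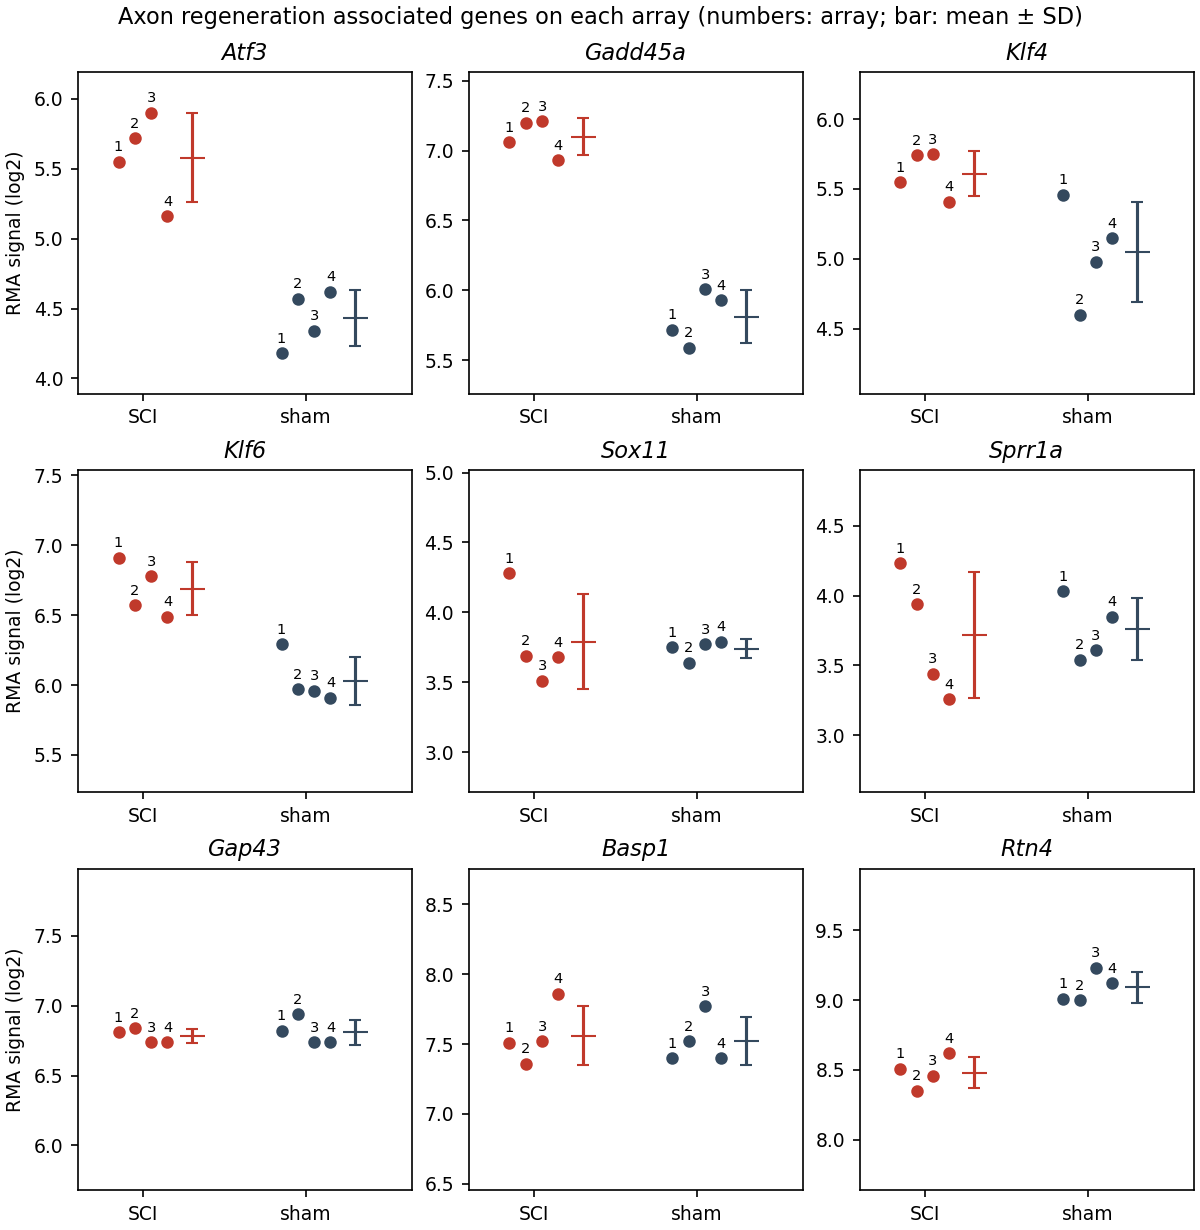
Log2 RMA signal (vertical axes, each spanning the same range) of each gene on the 4 SCI arrays (red, left) and the 4 sham arrays (dark blue, right), with array numbers beside the points and the mean ± SD beside each group. Atf3, Gadd45a and Klf6 lie higher on every SCI array than on any sham array, Rtn4 lies lower, and the groups of the other genes overlap.

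The largest rise of the 9 genes was in Gadd45a, which makes a small nuclear protein induced by DNA damage and other stress and acting in growth arrest and DNA demethylation. Its log2 signal (probe set 17791733) was 7.06, 7.20, 7.21 and 6.93 on the SCI arrays, against 5.72, 5.59, 6.01 and 5.93 on the sham arrays. The lowest SCI array stood 0.92 above the highest sham array. The mean was 7.10 ± 0.13 in SCI and 5.81 ± 0.19 in sham (SD, n = 4 each), a 2.44-fold rise (log2 difference 1.29, SE 0.12, 95% interval 1.02 to 1.55, limma adjusted p = 9.9e-05). Of all genes tested, 0.815% had a larger difference in either direction.

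Atf3 is a transcription factor of the ATF/CREB family that is nearly silent in resting neurons and serves as a common marker of axotomised ones, and other stressed cells, macrophages among them, induce it too. Its log2 signal (probe set 17687609) was 5.55, 5.72, 5.90 and 5.16 on the SCI arrays, against 4.18, 4.57, 4.34 and 4.62 on the sham arrays. Here too the groups were apart, with a gap of 0.54. Atf3 averaged 5.58 ± 0.32 in SCI and 4.43 ± 0.20 in sham (SD, n = 4 each), a 2.23-fold rise (log2 difference 1.16, SE 0.16, 95% interval 0.80 to 1.52, limma adjusted p = 0.00113). The sham mean lay below 4.74, the median of all gene means, so the gene was dim in sham cord, and RMA tends to compress differences at that end.

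Klf6 and Klf4 are Krüppel-like zinc finger factors, of which Klf6 favours axon growth in zebrafish and mouse neurons and Klf4 restrains it in mouse retinal ganglion cells. Klf6 (probe set 17720472) read 6.91, 6.57, 6.78 and 6.49 on the SCI arrays, against 6.29, 5.97, 5.96 and 5.91 on the sham arrays. All SCI arrays were above all sham arrays, by 0.20 at the nearest, and sham 1 stood apart from the other sham arrays. The rise was 1.57-fold (log2 difference 0.65, SE 0.13, 95% interval 0.38 to 0.93, limma adjusted p = 0.00617), and without sham 1 the difference was 0.74 with an adjusted p of 0.00506.

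Klf4 (probe set 17807351) read 5.55, 5.74, 5.75 and 5.41 on the SCI arrays, against 5.46, 4.60, 4.98 and 5.15 on the sham arrays. The groups overlapped, since SCI 4 lay just under sham 1, and 3 of the 4 SCI arrays were above the highest sham array. The sham arrays spread more (SD 0.36) than the SCI arrays (SD 0.16). The rise was 1.48-fold (log2 difference 0.57, SE 0.17, 95% interval 0.20 to 0.94, limma adjusted p = 0.0462), close to the threshold. The call ended with SCI 1, SCI 2, SCI 3, sham 2, sham 3 or sham 4 left out, at limma adjusted p of 0.0775 to 0.118, and an exact two-sided permutation test of the 8 arrays gave p = 0.0571. With each array left out in turn the difference stayed between 0.42 and 0.70.

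**Figure D2:**
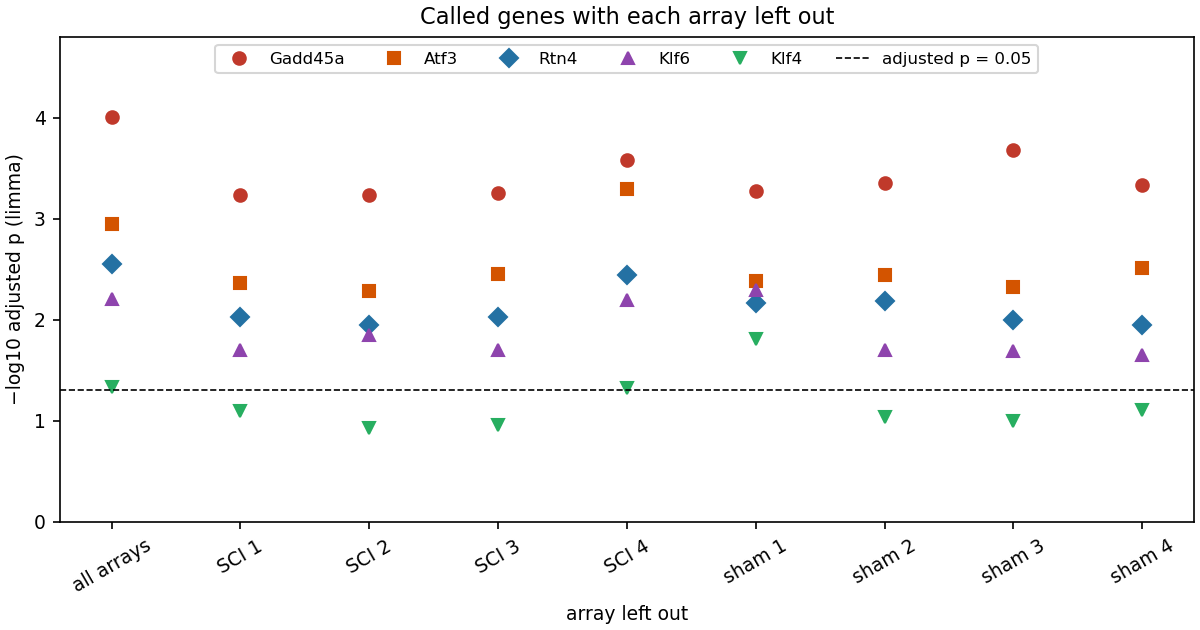
Minus log10 of the limma adjusted p (vertical axis) for the 5 called genes with all 8 arrays and with each array left out in turn (horizontal axis), with the dashed line at an adjusted p of 0.05. Gadd45a, Atf3, Rtn4 and Klf6 stay above the line at every position, and Klf4 falls below it at 6 of the 8 omissions.

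Promoter sequence is shown for the called genes Gadd45a and Klf6 and for Sprr1a, which did not pass, because Atf3 protein is known to act through AP-1 and CRE sites and its gene rose. The RefSeq table of the GRCr8 build held a window for 6 of the 9 genes, with none used for Atf3, Gap43 and Rtn4. The 250 bases before the annotated start are printed 5′ to 3′ on the gene's strand, and capitals mark the motifs searched on both strands: TGANTCA (AP-1), TGACGTCA (CRE), CCAAT and TATAAA. These matches did not overlap one another.
Gadd45a, chr4:97486800-97487049, minus strand: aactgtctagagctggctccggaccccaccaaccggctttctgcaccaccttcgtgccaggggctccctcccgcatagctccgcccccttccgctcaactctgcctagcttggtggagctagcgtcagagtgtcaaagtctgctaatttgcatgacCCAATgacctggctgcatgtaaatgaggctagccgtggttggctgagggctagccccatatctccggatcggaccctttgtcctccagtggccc
Klf6, chr17:69458479-69458728, minus strand: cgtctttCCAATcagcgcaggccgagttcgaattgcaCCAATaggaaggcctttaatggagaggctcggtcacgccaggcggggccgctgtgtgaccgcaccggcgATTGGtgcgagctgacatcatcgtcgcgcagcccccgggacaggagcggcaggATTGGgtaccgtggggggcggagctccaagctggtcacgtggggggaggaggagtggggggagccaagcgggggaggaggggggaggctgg
Sprr1a, chr2:180752626-180752875, minus strand: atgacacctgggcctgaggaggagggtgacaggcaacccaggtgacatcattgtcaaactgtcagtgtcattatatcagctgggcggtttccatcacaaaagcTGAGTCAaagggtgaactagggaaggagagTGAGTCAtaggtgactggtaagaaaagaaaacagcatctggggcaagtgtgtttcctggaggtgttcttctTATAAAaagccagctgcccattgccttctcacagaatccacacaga
The window of Klf4 is not described, because its start in the table lies inside the gene. Of the other 5 windows, only that of Sprr1a held TGANTCA, with 2 matches that begin at -147 and -117 from the start, and 6.34% of all 33469 windows of this length held at least 1. No window of the 5 held TGACGTCA, which 1.59% of all windows held. CCAAT was found 4 times in Klf6 and 1 time each in Gadd45a and Sox11, and in 34.0% of all windows, and TATAAA in Sprr1a, and in 12.9% of all. The matches are letters in a window and say nothing of binding.

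Rtn4 encodes the reticulon whose long form, Nogo-A, sits in the membranes of oligodendrocytes and of many neurons. Its log2 signal (probe set 17692172) was 8.51, 8.35, 8.46 and 8.62 on the SCI arrays, against 9.01, 9.0, 9.23 and 9.12 on the sham arrays. Every SCI array was lower than every sham array. The mean was 8.48 ± 0.11 in SCI and 9.09 ± 0.11 in sham (SD, n = 4 each), and the log2 signal fell by 0.60 (SE 0.10, 95% interval -0.82 to -0.38, limma adjusted p = 0.00283), to 0.659 of the sham level. The probe set is annotated to the gene as a whole, so the Nogo-A, -B and -C forms are not told apart. A further probe set, annotated to Rtn4 and a ribosomal RNA together, was left out by the rule.

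The growth cone genes did not pass the test. Gap43, which makes a membrane-bound protein of growing axon tips that binds calmodulin, read 6.81, 6.84, 6.74 and 6.74 on the SCI arrays, against 6.82, 6.94, 6.74 and 6.74 on the sham arrays. The groups overlapped nearly whole, and the SDs were 0.05 in SCI and 0.09 in sham. The log2 difference was -0.03 (SE 0.09, 95% interval -0.23 to 0.17, limma adjusted p = 0.887), and in fold terms the interval runs from 0.855 to 1.12. Basp1, also called CAP-23 and like Gap43 a protein that organises actin under the membrane, read 7.51, 7.36, 7.52 and 7.86 on the SCI arrays, against 7.40, 7.52, 7.77 and 7.40 on the sham arrays. The groups overlapped, with SCI 4 highest of the SCI arrays and sham 3 highest of the sham arrays. The difference was 0.04 (SE 0.13, 95% interval -0.25 to 0.33, limma adjusted p = 0.901). The rises measured for Atf3, Klf6 and Klf4 lie outside both intervals, but no difference between genes was tested. The interval of Klf4 (0.20 to 0.94) overlaps that of Basp1.

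Sox11, a transcription factor of the SoxC group that promotes peripheral regeneration in mouse, read 4.28, 3.69, 3.51 and 3.68 on the SCI arrays, against 3.75, 3.64, 3.77 and 3.79 on the sham arrays. SCI 1 alone lay above the sham arrays, and without it the difference turned from 0.05 (SE 0.15, 95% interval -0.29 to 0.38, limma adjusted p = 0.884) to -0.11 (limma adjusted p = 0.582). Sprr1a, an epithelial envelope protein that injured peripheral neurons make in large amounts and whose printed window held the AP-1 letters, read 4.23, 3.94, 3.44 and 3.26 on the SCI arrays, against 4.03, 3.54, 3.61 and 3.85 on the sham arrays. It varied most of the 9 within SCI (SD 0.45), with SCI 1 again highest, and the difference was -0.04 (SE 0.20, 95% interval -0.49 to 0.41, limma adjusted p = 0.933). Both genes averaged below the median of all gene means (3.76 and 3.74 against 4.74). No detection calls were used, so these probe sets may read little above background, and a change in few cells could be missed.

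**Figure D3:**
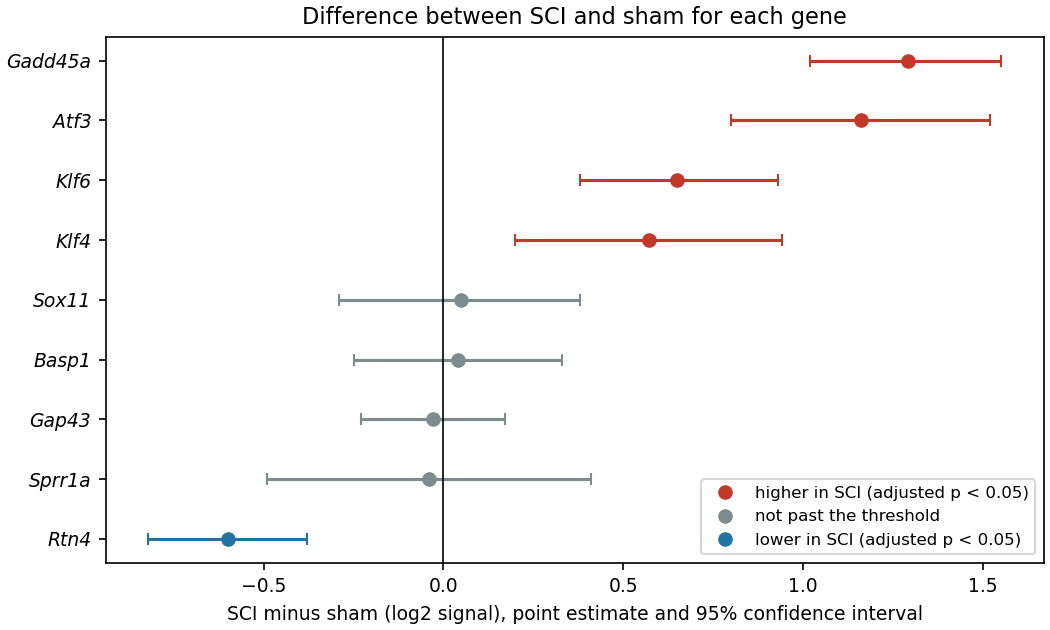
SCI minus sham difference in log2 signal (horizontal axis) with its 95% confidence interval for each of the 9 genes, coloured by the result of the limma test. The intervals of Gadd45a (1.02 to 1.55) and Atf3 (0.80 to 1.52) lie furthest to the right, that of Rtn4 (-0.82 to -0.38) lies left of 0, and those of Sox11, Basp1, Gap43 and Sprr1a span 0.

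Within the injured group SCI 4 had the lowest log2 signal of the SCI arrays for Gadd45a, Atf3, Klf6 and Klf4 and the highest for Rtn4, so for all 5 called genes it was the injured array nearest to sham. This is not particular to these genes. SCI 4 was also the injured array nearest to sham on the first principal component of all values (-14.20, where the other SCI arrays had -30.25 to -22.74). The other 3 SCI arrays had no shared order, since Klf6 was highest on SCI 1, Atf3, Gadd45a and Klf4 on SCI 3, and Rtn4 was lowest on SCI 2. SCI 4 had the lowest mean of 12 myeloid markers among the SCI arrays (7.68, where the others had 7.91 to 8.13), the highest mean of 14 pan-neuronal markers (8.73, where the others had 8.47 to 8.64) and the highest mean of 11 oligodendrocyte and myelin markers (9.15, where the others had 8.88 to 9.02). Not every list went this way. For astrocyte markers SCI 4 was furthest from sham (9.46, other SCI arrays 9.37 to 9.43, sham 9.26 to 9.32), as it was for the epithelial and partner transcription factor lists. Without SCI 4 the log2 differences were 1.30 for Atf3, 1.34 for Gadd45a, 0.72 for Klf6, 0.63 for Klf4 and -0.65 for Rtn4, all past the limma threshold.

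Cell type markers moved between the groups alongside these genes. In whole tissue, fewer cells of a type and less RNA per cell cannot be told apart. The share called over all genes, to set beside each marker count, was 7.10% higher in SCI and 7.06% lower. The cord itself was plain in both groups from Gfap of astrocytes (log2 signal 11.68 in SCI and 10.87 in sham), Mbp of myelin (10.98 in SCI and 11.68 in sham) and Snap25 of neurons (11.82 in SCI and 12.18 in sham), the last chosen after its value was seen. All 12 myeloid markers were higher in SCI, with list means of 7.68 to 8.13 on SCI arrays and 6.15 to 6.43 on sham arrays, and Cd68, a lysosomal protein of macrophages and microglia, rose 18.0-fold (limma adjusted p = 8.8e-08). Macrophages and microglia are known to express Atf3, Gadd45a, Klf4 and Klf6 as well. The part of these cells in the rises of the 4 genes was not tested.

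On the side of the falls, all 14 pan-neuronal markers were lower in SCI, with list means of 8.47 to 8.73 on SCI arrays and 9.08 to 9.21 on sham arrays. Of the 14, 9 kept their call with any single array left out, 6 with the number in each array's title as covariate and 2 without SCI 3, sham 1 and sham 2. Of 11 oligodendrocyte and myelin markers 9 were lower and 0 higher, with list means of 8.88 to 9.15 in SCI and 9.61 to 9.66 in sham. Of the 9, 8 kept their call with any single array left out, the exception being Myrf, chosen after its value was seen, and 6 without SCI 3, sham 1 and sham 2. Rtn4, with its difference of -0.60, lay between the medians of the pan-neuronal list (-0.52) and the myelin list (-0.69), and the part of either cell type in its fall was not tested. Of 11 Schwann cell markers, the glia of peripheral nerve, 3 were higher (Scn7a by 1.25, Ncmap by 0.91 and Pmp22 by 0.83) and 0 lower, with list means of 5.79 to 6.14 in SCI and 5.40 to 5.60 in sham. The list stands beside Atf3 and Gap43, which Schwann cells of injured nerve are known to make, and its part was not tested.

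Markers of dorsal root ganglion neurons, in which the regeneration programme is best known, gave 0 higher and 0 lower genes of 10 tested, with list means of 3.58 to 3.90 in SCI and 3.55 to 3.74 in sham, and 9 of the 10 had sham means below the median of all genes. Of 6 epithelial and keratinocyte markers, the cells that make Sprr1a in skin, 2 were higher (Cdh1 by 0.78 and Krt1 by 0.47, each losing its call with any of 6 single arrays left out), with list means of 3.11 to 3.28 in SCI and 2.99 to 3.18 in sham. Of 9 astrocyte markers 2 were higher, Gfap (0.81) and Gja1 (0.59), and Slc1a2 was lower (-0.39). Of 8 endothelial markers, where Klf4 is also known, 1 was higher, Cdh5 (0.68). Of 8 fibroblast and scar markers 4 were higher, Col1a2 (1.00), Col1a1 (0.93), Col3a1 (0.85) and Fn1 (0.85), and 0 lower. Slc1a2 and Fn1 each lost their call with any of 6 single arrays left out. Without SCI 3, sham 1 and sham 2, 1 of the 3 astrocyte calls and 1 of the 4 fibroblast and scar calls were kept. Of the 1 endothelial and 2 epithelial calls, 0 were kept. Over all genes, 7.10% were higher and 7.06% lower.

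**Figure D4:**
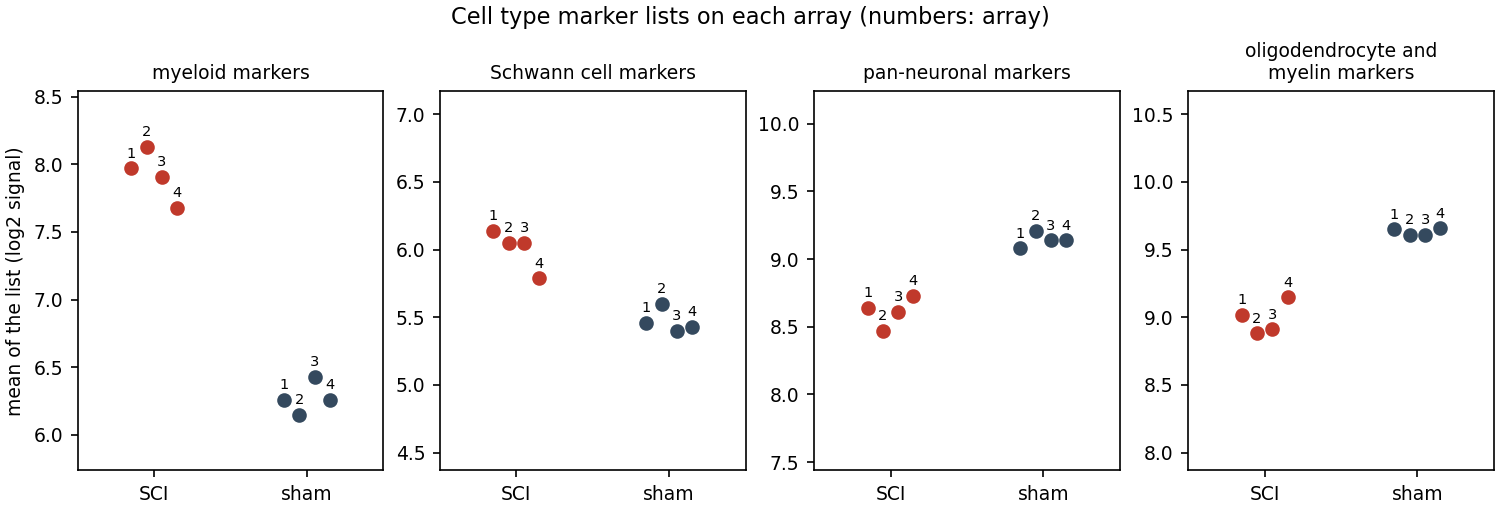
Mean log2 signal (vertical axes, each spanning the same range) of 4 marker lists on each SCI array (red, left) and sham array (dark blue, right), with array numbers beside the points. Myeloid and Schwann cell lists are higher and pan-neuronal and myelin lists lower on all SCI arrays, and SCI 4 is the SCI array nearest to sham in each.

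The regulators that share the injury programme with Atf3 rose in part. Of 12 partner transcription factors tested, 4 were higher (Stat3, Egr1, Jun and Rest) and 0 lower, where 7.10% and 7.06% of all genes were. Stat3, the transducer of cytokine signals that starts regrowth after injury, averaged 8.01 ± 0.11 in SCI and 7.42 ± 0.03 in sham (SD, n = 4 each; log2 difference 0.59, SE 0.09, limma adjusted p = 0.00209), and the groups did not overlap. Egr1, an immediate early factor, rose by 0.81 (SE 0.13, limma adjusted p = 0.00228). Jun, the partner with which Atf3 binds DNA, rose by 0.52 (SE 0.13, limma adjusted p = 0.0215), but lost its call with SCI 1, SCI 2, sham 1, sham 2 or sham 4 left out (0.0533 to 0.0665). Rest, a repressor of neuronal genes, rose by 0.54 (SE 0.14, limma adjusted p = 0.0277), and lost its call with SCI 1, SCI 2, SCI 4, sham 2, sham 3 or sham 4 left out (0.0619 to 0.0793). Smad1, which carries BMP signals, had -0.04 (SE 0.11, limma adjusted p = 0.858).

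Relatives of the 9 genes gave different readings from them in several families, and no difference between relatives was tested. Of 18 relatives tested, 3 were higher and 2 lower, where 7.10% and 7.06% of all genes were. Sox4, the closest relative of Sox11, had log2 signals of 6.28, 6.34, 6.24 and 6.05 on the SCI arrays, against 5.07, 4.87, 5.22 and 5.07 on the sham arrays. The groups lay far apart, and the rise was 2.25-fold (log2 difference 1.17, SE 0.11, 95% interval 0.93 to 1.41, limma adjusted p = 9.4e-05), while Sox12, the other SoxC gene, had 0.03 (SE 0.13). Beside Gadd45a, Gadd45g rose 1.95-fold (log2 difference 0.97, SE 0.14, limma adjusted p = 0.00159, or 0.0573 without SCI 3, sham 1 and sham 2) and Gadd45b had 0.20 (SE 0.10, limma adjusted p = 0.210).

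Marcks, which like Gap43 and Basp1 binds calmodulin and actin at the membrane, rose 1.80-fold (log2 difference 0.85, SE 0.12, limma adjusted p = 0.00133), and its relative Marcksl1 had -0.20 (SE 0.10, limma adjusted p = 0.220). Among the other reticulons, Rtn3 fell by 0.52 (SE 0.10, limma adjusted p = 0.00537), with every SCI array below every sham array. Rtn1 had -0.31 (SE 0.09, limma adjusted p = 0.0531), and Rtn2, chosen after its value was seen, fell by 0.40 (limma adjusted p = 0.0448) and lost its call with any single array but SCI 4 left out (0.0604 to 0.110). Klf7, known to favour axon growth, had -0.21 (SE 0.09, limma adjusted p = 0.172), and Klf9, known to restrain it, had 0.04 (SE 0.13, limma adjusted p = 0.879).

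Other genes that injured neurons are known to induce split between rises and falls. Of 24 tested, 5 were higher and 8 lower, where 7.10% and 7.06% of all genes were. The largest rise was in the small heat shock gene Hspb1, which averaged 8.42 ± 0.27 in SCI and 6.62 ± 0.15 in sham (SD, n = 4 each), a 3.48-fold rise (log2 difference 1.80, SE 0.14, limma adjusted p = 3.4e-05). Cd44, the hyaluronan receptor of many cell types, rose by 1.19 (SE 0.12, limma adjusted p = 1.2e-04). The other higher genes, chosen after their values were seen, were Plat (0.77), Plaur (0.72) and Lgals1 (0.64), all also made by glia or myeloid cells.

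The lower genes of this list were cytoskeletal or neuronal. A further 11 genes of the list did not pass, and the part of any cell type in these rises and falls was not tested. Tubb2b, a beta-tubulin of growing neurons, fell by 0.92 (SE 0.10, limma adjusted p = 2.3e-04), and the microtubule regulators Stmn4 and Stmn2 fell by 0.82 (SE 0.12, limma adjusted p = 0.00159) and by 0.42 (SE 0.09, limma adjusted p = 0.0103). Plaur, Vip and Tubb3, also chosen after their values were seen, lost their call with at least 1 single array left out. Without SCI 3, sham 1 and sham 2, only 2 genes of the list were higher and 2 lower.

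Some brakes inside the neuron and some genes of the Rtn4 receptor pathway passed the test. Of 9 brakes tested 2 passed, where 14.2% of all genes did. Socs3, which shuts off Stat3 signalling, was higher (0.77, SE 0.18, limma adjusted p = 0.0174) and Tsc1, a restraint on mTOR, was lower (-0.29, SE 0.09, limma adjusted p = 0.0496). Socs3 lost its call with SCI 2 or sham 4 left out (0.0562 without SCI 2 and 0.0519 without sham 4), and Tsc1 with any single array left out (0.0512 to 0.127). The groups overlapped for Socs3, and its sham mean of 3.64 lay below the median of all gene means (4.74). Of 13 genes of the Nogo receptor pathway, 2 were higher and 2 lower, where 7.10% and 7.06% of all genes were. The Nogo receptor Rtn4r had 0.15 (SE 0.14, limma adjusted p = 0.573), and its partners Lingo1 and Ngfr had 0.04 (SE 0.10) and 0.24 (SE 0.15).

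Omg and Mag, which make the other myelin proteins that bind the Nogo receptor, fell with Rtn4. Omg fell by 0.67 (SE 0.10, limma adjusted p = 0.00201) and Mag by 0.59 (SE 0.12, limma adjusted p = 0.00981), and in both the groups did not overlap. Without SCI 3, sham 1 and sham 2 Omg kept its call (0.0416) and Mag did not (0.145). The higher genes were Lilrb3, an inhibitory receptor of myeloid cells whose mouse form also binds Nogo (1.12, SE 0.26, limma adjusted p = 0.0165), and Tnfrsf19 (0.40, SE 0.11, limma adjusted p = 0.0398). Lilrb3 lost its call without SCI 2 (0.0517), and Tnfrsf19 without SCI 2, SCI 3 or any sham array (0.0570 to 0.112). For Lilrb3 the groups overlapped, and its sham mean of 3.07 lay below the median of all gene means (4.74).

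**Figure D5:**
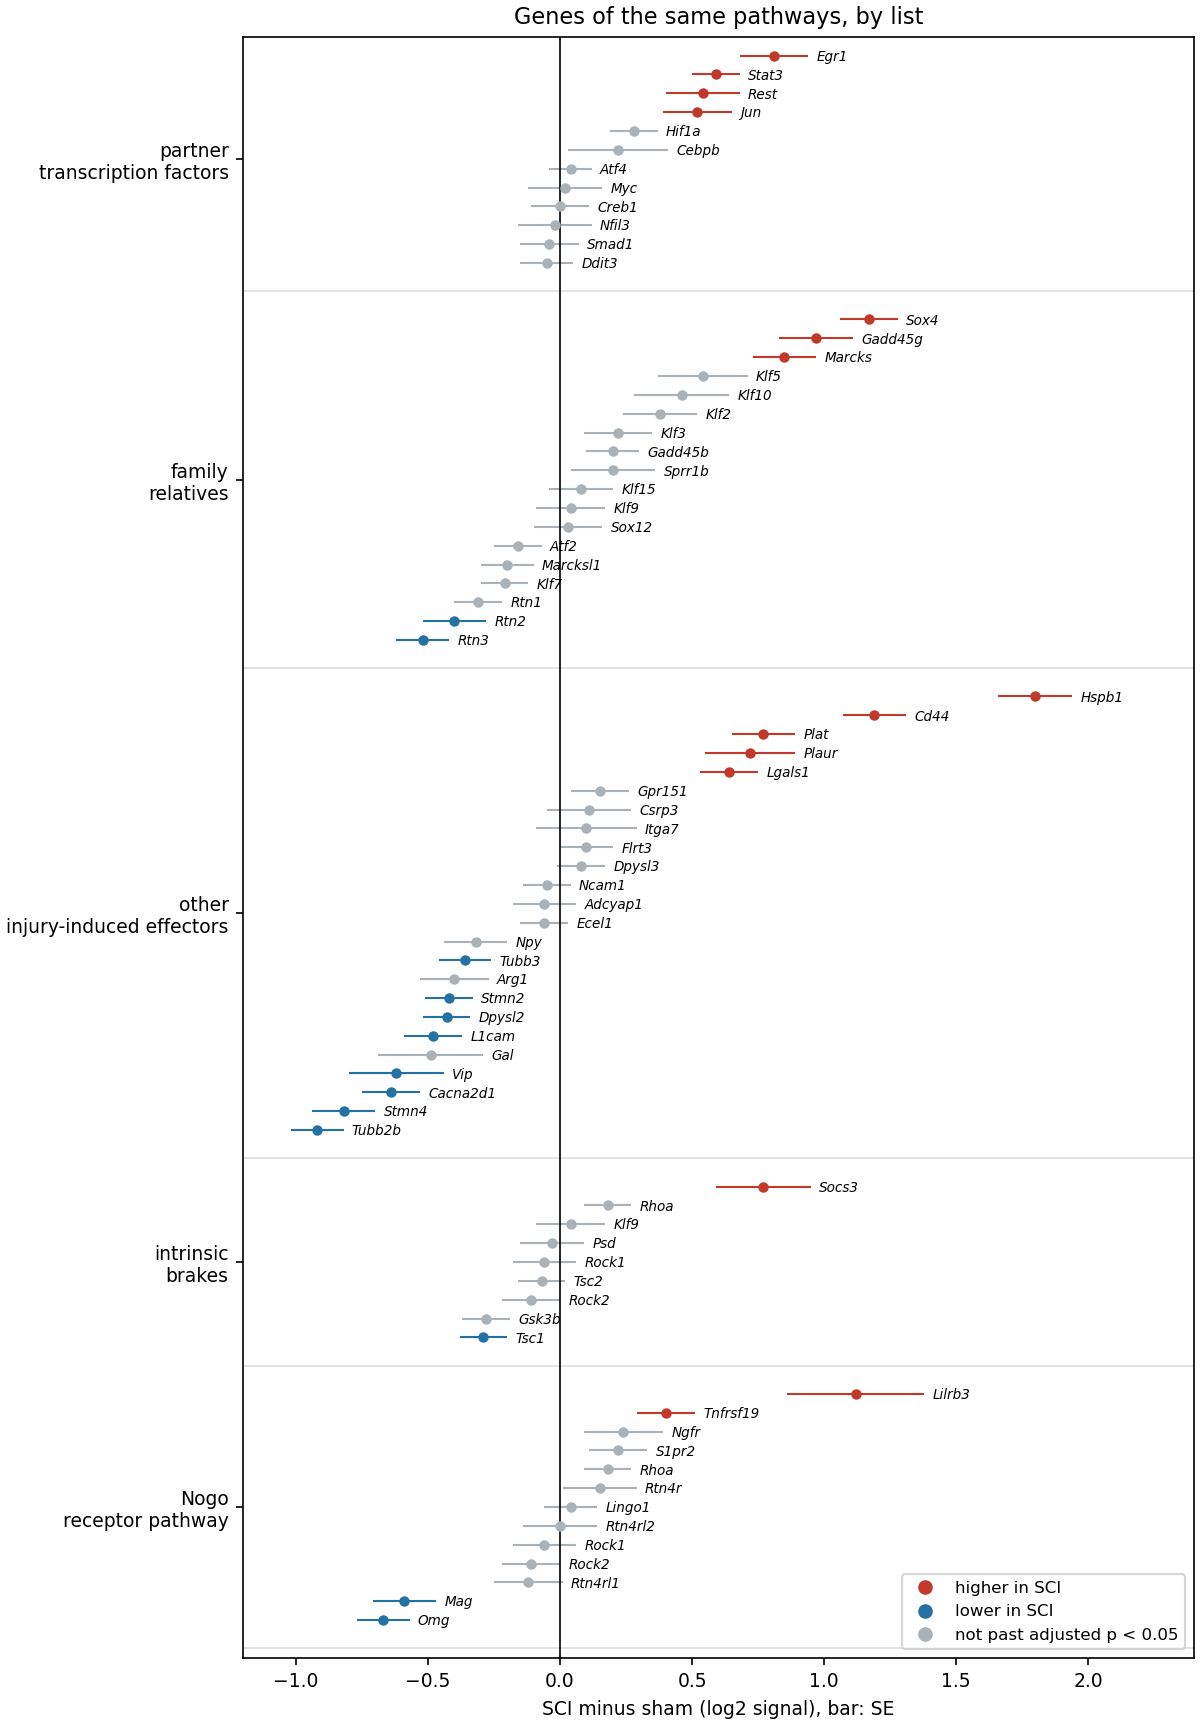
SCI minus sham difference in log2 signal (horizontal axis, bar: SE) for each tested gene of the 5 related lists (vertical axis, sorted within a list), coloured by the limma test. Hspb1 (1.80), Cd44 (1.19) and Sox4 (1.17) are the largest rises and Tubb2b (-0.92) and Stmn4 (-0.82) the largest falls among them.

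Likeness in level over the 8 arrays was taken as Pearson's r among genes brighter than the median gene. It is a description only and takes in the group difference and the shared normalisation. The profile of Gadd45a was most like those of Ctsh, Vim and Ctsb (r of 0.996 to 0.998), of which Ctsh and Ctsb make lysosomal cathepsins and Vim the filament vimentin. The profile of Atf3 was most like those of Lat2, Lpar5 and Vps54 (r of 0.990 to 0.993), and that of Klf6 most like those of Prdx6, Pxdc1 and Cldn10 (r of 0.979 to 0.987). Of the genes most like Klf6 only Pxdc1 passed the limma threshold (0.69), and Prdx6 and Cldn10 had 0.27 and 0.28. Klf4 was most like Oat, Cmtm4 and Tgfbrap1 (r of 0.960 to 0.972), whose differences of 0.18, 0.14 and 0.21 did not pass. Rtn4 was most like Aak1, Sort1 and Pcsk2 (r of 0.993 to 0.995), which fell by 0.39, 0.45 and 0.64.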

How the data were processed

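The authors' deposited table holds log2 values of 36685 probe sets on 8 arrays, made with Affymetrix Expression Console and RMA per the submitters' processing notes, which name no version. The labels name neither settings nor a genome build. RMA output is on the log2 scale, which the range of the values fits, and array medians lay between 3.73 and 3.81. The platform annotation gave 18511 probe sets 1 symbol, 575 several and 17599 none here. Where a gene had several (291 genes), its brightest probe set on average stood for it, and 18166 genes were tested.

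The SCI minus sham difference was fitted by limma 3.58.1 under R 4.3.3 (lmFit, eBayes, no covariate, two-sided), with Benjamini-Hochberg adjustment over all genes. Intervals are at 95%. The fit was tested on simulated data. Precision is limited by having 4 arrays per group. No pair of arrays held identical values. Replicates were numbered in sample order and pair nothing.

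The 9 genes, the 14 lists and the naming rule were chosen with earlier results of these data known, so lists are described by counts with no set test. The rule named the 9 genes, up to 4 genes of each list by smallest p and a set of relatives whatever their result. Genes outside it are said to be chosen after their values were seen. Listed genes without a probe set of 1 symbol were not analysed here. Alternatives were single arrays left out, SCI 3, sham 1 and sham 2 left out together, other scalings, probe set choice, filters, eBayes settings, array weights, the number in each array's title as covariate and an exact permutation test. The title numbers were 4, 6, 7 and 8 in SCI and 5, 9, 10 and 11 in sham, so that covariate goes partly with the group. Leaving out SCI 3, sham 1 and sham 2 left SCI 1, SCI 2 and SCI 4 against sham 3 and sham 4. Calls lost in either can come from reduced precision.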

Additional observations from a re-analysis of the deposited data

Results flagged for a closer look

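The 74 genes examined hold the 9 and each gene named from the lists; each was examined in both groups for an array far from the other 3 (Dixon's test at 95%), and 5 of 148 groups of 4 arrays were marked, where chance marks about 1 in 20. Klf6 read 6.29 on sham 1, where the other sham arrays had 5.91 to 5.97. Sox12 read 5.13 on sham 4, where the others had 4.74 to 4.76. Mag read 9.04 on SCI 3, where the other SCI arrays had 9.32 to 9.35. Pmp22, a peripheral myelin gene, read 9.98 on sham 2, where the others had 9.74 to 9.78. Vip, a neuropeptide gene, read 4.41 on sham 1, where the others had 3.98 to 4.03.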

How the results depend on the processing

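Gadd45a, Atf3, Klf6 and Rtn4 kept their direction and call under each alternative run, with limma adjusted p up to 0.00965, 0.0328, 0.0463 and 0.0350 without SCI 3, sham 1 and sham 2. The higher genes among the 9 numbered 3 or 4 and the lower 1 throughout. Klf4 missed the threshold centred on array medians (0.53, adjusted p = 0.0594), quantile normalized again (0.56), over every probe set (0.57, adjusted p = 0.127), with the title number as covariate (0.43, adjusted p = 0.227) and without SCI 3, sham 1 and sham 2 (0.50), and with single arrays left out it ran from 0.42 to 0.70. The 4 genes near 0 changed sign, none past the threshold. With single arrays left out Gap43 ran from -0.05 to 0.01, Sprr1a from -0.21 to 0.11, Sox11 from -0.11 to 0.14 and Basp1 from -0.06 to 0.12. Without SCI 3, sham 1 and sham 2 Gap43, Sprr1a and Basp1 had 0.06, 0.08 and -0.01, with array weights Sprr1a had 0.03, and with the covariate Sox11 had -0.07. Likewise Smad1 (-0.12 to 0.01), Klf9 (-0.02 to 0.13), Sox12 (-0.02 to 0.12) and Lingo1 (-0.02 to 0.10) crossed 0 with single arrays left out, Klf9 had -0.12 with the covariate, Sox12 -0.01 after centring and -0.09 without the 3 arrays, and Rtn4r -0.03 without them.

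Over all genes, calls numbered 1703 to 2540 with single arrays left out (1703 without SCI 2), 1356 with the covariate and 847 without the 3 arrays, where 2572 were called with all. Higher and lower calls numbered 1290 and 1282 with all arrays, 1134 and 1568 after centring, 1367 and 1814 among genes above the median, and 563 and 284 without the 3 arrays. Called partner transcription factors numbered 2 to 4 with single arrays left out, and 2 over every probe set and with the covariate. They numbered 5 after quantile normalization, among genes above the median and with other eBayes settings. Called relatives numbered 4 to 7, 8 among genes above the median and 3 without the 3 arrays. Called effectors numbered 10 to 12, and 4 without the 3 arrays. They numbered 9 over every probe set and with the covariate, and 14 with other eBayes settings and with array weights. Called brakes numbered 0 to 1, 1 after quantile normalization, with the covariate and without the 3 arrays, and 0 over every probe set. They numbered 3 after centring, with other eBayes settings and with array weights. Called Nogo pathway genes numbered 2 to 4, 2 over every probe set and with the covariate, and 1 without the 3 arrays. The causes were not tested. No member had a second probe set of its own symbol, so that alternative gave no value. No paired analysis was possible because the labels give the arrays of the groups no shared number.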

Other observations

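Each gene's log2 signal was also taken relative to the mean of the 14 pan-neuronal markers on the same array, a measure chosen after the data were seen. So taken, Gap43 was -1.83 ± 0.15 in SCI and -2.33 ± 0.08 in sham, and Basp1 was -1.05 ± 0.12 in SCI and -1.62 ± 0.17 in sham (SD, n = 4 each), and the groups did not overlap for either gene (exact two-sided permutation p = 0.0286, the smallest that 4 against 4 arrays allow). Atf3, Gadd45a, Klf4, Klf6 and Sox11 also lay wholly higher in SCI on this measure (exact permutation p = 0.0286 each), and Sprr1a overlapped (0.171). Relative to these markers 62.1% of all genes lay wholly higher in SCI and 0.319% wholly lower, so this placement is shared by most genes. The 14 markers were themselves lower in SCI. Rtn4 was -0.13 ± 0.01 in SCI and -0.05 ± 0.12 in sham relative to the pan-neuronal markers, and -0.51 ± 0.04 in SCI and -0.55 ± 0.12 in sham relative to the 11 myelin markers (SD, n = 4 each). Its groups overlapped on both measures (exact permutation p = 0.314 and 0.543). Relative to the myelin markers, 73.6% of all genes lay wholly higher in SCI and 0.149% wholly lower. Both lists were themselves lower in SCI by medians near the fall of Rtn4 (-0.52 and -0.69 against -0.60), so overlap follows from the choice of reference. The part of either cell type in the fall of Rtn4 was not tested.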
